A study of Mus musculus with 4 samples.

Results

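The nuclear pore complex is the large ring of proteins that spans the nuclear envelope and carries all traffic of RNA and protein between nucleus and cytoplasm. The data described are the transcript levels of 30 genes of this complex in cultures grown from mouse muscle stem cells. The genes were chosen by symbol from a list of nucleoporins and close partners, out of 54446 rows in the deposited table. Each of the 30 symbols had 1 row. Of these, 29 had a value above 0, and 28 reached a mean of 1 FPKM over the samples and were tested. FPKM is a count of fragments scaled to transcript length and library size. Levels of different genes are set side by side on this scale only roughly. Longer transcripts had lower levels here, and the part of the scaling in this was not tested.

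The 4 samples were grown from satellite cells, which are the resident stem cells of muscle, taken from the hindlimb of C57BL/6 mice. The medium was F10 with 10% HS and P/S. In 2 samples, titled knockdown, the cells received siRNA aimed at the long non-coding RNA LncMyoD, whose name recalls the muscle regulator Myod1. The other 2 samples are titled control, and their group is taken from that title. Per the labels, harvest was 48 h after treatment. Age, sex and any pooling of animals are not given in the labels, and the treatment text of the control samples, like that of all 4 samples, names LncMyoD as the target. No label says that replicates came from separate animals or cultures, and the p-values reflect only how far these samples differ among themselves, a spread that may be technical.

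In the table, 0 rows carried the name LncMyoD, and the target could not be used to check the labels of the groups. The myogenic identity was visible in every library, with Myod1 between 583 and 698 FPKM and Myog between 2793 and 4196. Pax7, the satellite cell factor, lay between 0.625 and 1.40, far below Myog, a factor of differentiating cells. The summed level of 8 myogenic markers was 4427 and 4039 FPKM after knockdown, against 5426 and 5147 in the controls, mostly from Myog. The other 7 summed to 1020.3 and 1246 FPKM against 1230.0 and 1216, and these groups overlapped. Of the 7 myogenic markers tested, 2 were positive and 5 negative, and 0 passed the adjusted threshold. Of the markers of other cell types, Kdr, Ptprc, Adgre1 and S100b were at 0 in all 4 libraries and Pdgfra in 3. The summed level of 5 genes listed as fibro-adipogenic markers was 4.65 and 4.96 FPKM after knockdown, against 1.95 and 1.25 in the controls. Most of this came from Cd34, at 4.52 and 4.62 against 1.36 and 1.17. Which cells held the Cd34 transcripts cannot be told in bulk samples. The log2 fold change of Cd34 was 1.3 with a limma adjusted p of 0.265, and the part of these markers in the results was not tested. Pdgfra and Lum were at 0 in both knockdown libraries, and no fibro-adipogenic marker but Cd34 was above 0.343 FPKM in any library. Summed levels of 5 markers each were 0.889 to 2.68 FPKM for endothelium, 0.526 to 1.37 for leukocytes, 2.25 to 3.06 for smooth muscle and pericytes and 0.0113 to 0.864 for Schwann cells.

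As background, the pore is built from repeated modules. A Y-shaped complex forms the outer rings on the nuclear and cytoplasmic faces, and an inner ring lines the waist and holds the channel proteins. The channel proteins carry phenylalanine-glycine repeats that form the permeability barrier, membrane proteins anchor the ring, and filaments on either face bind transport factors, RNA helicases and chromatin. In muscle, the membrane nucleoporin Nup210 is known to be absent from proliferating myoblasts and made as they differentiate.

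Between knockdown and control cells, 0 of the 28 tested pore genes passed the adjusted threshold in either direction (limma, Benjamini-Hochberg adjusted p under 0.05). Of all 10900 genes tested, 0.0550% passed, 0.00917% on the higher side and 0.0459% on the lower. At an unadjusted p under 0.05 there were 2 members, Nup62 on the lower side and Nup205 on the higher, beside 7.08% of all genes. Nup62 was under 0.05 in each alternative run, while Nup205 was not without any 1 of the 4 libraries in turn or with quantile normalization. The share of all genes was 3.72% without control replicate 1, 10.6% without knockdown replicate 1 and 10.6% without knockdown replicate 2. The median log2 fold change of the members was 0.01, with 14 positive and 14 negative, beside 54.8% and 45.2% of all genes. It was -0.03 with quantile normalization and -0.01 with median ratio scaling. The median of all genes tested was 0.03, and it was -0.00494 with quantile normalization and 0.00122 with median ratio scaling. In 6 members both knockdown libraries lay above both controls and in 4 they lay below, beside 22.1% and 16.3% of all genes. A log2 fold change within 0.25 of 0 was found for 24 of the 28 members, or 85.7%, beside 70.2% of all genes. The median half-width of the unadjusted 95% interval of a member was 0.37 with 2 samples a group, beside 0.48 for all genes tested. Tested members had a median mean level of 15.1 FPKM, beside 7.02 for all genes tested. The part of level in these shares and widths was not tested. In bulk samples, fewer cells of a type and less RNA per cell cannot be told apart.

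**Figure D1:**
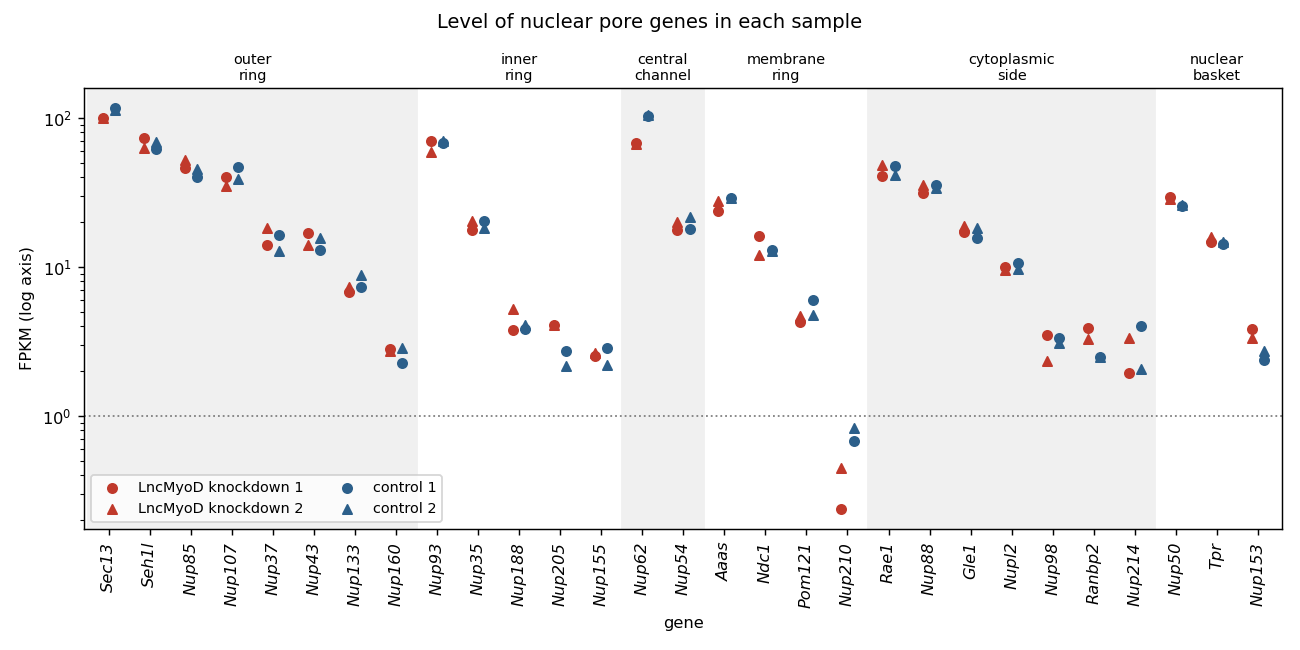
Level of each of the 29 pore genes listed above 0, in FPKM on a log axis, in each of the 4 samples; red marks are LncMyoD knockdown and blue marks control, circles replicate 1 and triangles replicate 2. The dotted line is 1 FPKM; Nup62 is the abundant gene with a clear gap between groups, and Nup210 lies below the line in every sample.

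Nup62 codes for the central channel protein that gives its name to the channel subcomplex. It had 68.0 and 66.5 FPKM in the knockdown libraries against 103 and 105 in the controls. Both knockdown libraries lay far below both controls, and within each group the higher library exceeded the lower by a factor of only 1.02. The means were 67.2 ± 1.03 and 104.0 ± 1.10 FPKM (SD, n = 2), a knockdown level of 0.647 of control. By limma the log2 fold change of Nup62 was -0.62 ± 0.091 (SE), with a 95% interval of -0.84 to -0.40 and an adjusted p of 0.265. It ranked 17 among the 10900 genes by p and 488 by size of change. Leaving out each library in turn gave -0.64 to -0.61, with adjusted p from 0.161 to 0.841.

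Nup62 (ENSMUSG00000109511; chromosome 7, 44816088 to 44830812, plus strand, GRCm38) shares exonic bases with a neighbour on each strand, and the strand setting of the values is not known. It shares 82 of its 2854 exonic bases with Atf5, a stress transcription factor on the opposite strand. Atf5 had 4.78 and 6.76 FPKM after knockdown, against 6.38 and 8.17 in the controls, and its groups overlapped. It shares 97 bases with Il4i1, an amino acid oxidase gene on its own strand, which was listed at 0 and 0.0252 FPKM after knockdown, against 0.254 and 0.190 in the controls. Both neighbours were chosen after the values were seen. Their listed levels were below that of Nup62, and the part of the shared bases in the values of Nup62 was not tested.

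The 2 partners of Nup62 in the channel gave different pictures. Nup54 had 17.6 and 20.1 FPKM after knockdown, against 17.8 and 21.6 in the controls, with a log2 fold change of -0.06 (95% interval -0.44 to 0.31) that was 0.03 without knockdown replicate 1 and 0.07 without control replicate 2. These groups overlapped. Nupl1, whose protein is also called Nup58, was listed at 0 in all 4 libraries. Its 1 annotated transcript shares 1756 of its 3602 exonic bases, or 48.8%, with the coding gene Gm49336 on the same strand (chromosome 14, 60205282 to 60251507). Gm49336, named after its values were seen, had 4.45 and 6.23 FPKM after knockdown, against 5.28 and 4.51 in the controls, with a log2 fold change of 0.09 (95% interval -0.43 to 0.62). The 0 of Nupl1 is only what the table lists, and the part of the shared exons in it was not tested.

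Promoter sequence was available for 26 of the 30 members, from RefSeq on GRCm38.p6, as windows of 300 bases from 250 before to 50 after a gene start. The palindrome bound by the nuclear respiratory factor NRF1, whose letters are the capitals in the sequences printed here, was in the windows of 3 members, Nup62, Nup107 and Nup50. That is 11.5% of the members matched, beside 2.60% of the 7609 tested genes with a window and 1.07% of all 27025 genes. They are shown because they share these letters and include Nup62. The stretches before the start are chr7:44815838-44816087 on the plus strand for Nup62, which lies in the Atf5 gene outside its exons, chr10:117792706-117792955 on the minus strand for Nup107, and chr15:84923178-84923410 on the plus strand for Nup50. All are written 5′ to 3′, with the NRF1 letters in capitals.

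Nup62: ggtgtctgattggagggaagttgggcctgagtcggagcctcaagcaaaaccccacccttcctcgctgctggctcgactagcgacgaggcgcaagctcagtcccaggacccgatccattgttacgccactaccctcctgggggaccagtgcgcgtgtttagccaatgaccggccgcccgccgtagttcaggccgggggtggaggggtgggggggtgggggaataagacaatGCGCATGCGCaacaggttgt
Nup107: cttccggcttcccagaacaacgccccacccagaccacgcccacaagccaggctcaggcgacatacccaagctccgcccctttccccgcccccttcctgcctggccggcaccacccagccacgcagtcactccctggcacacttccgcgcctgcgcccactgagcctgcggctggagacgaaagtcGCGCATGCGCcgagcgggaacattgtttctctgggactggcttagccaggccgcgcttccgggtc
Nup50: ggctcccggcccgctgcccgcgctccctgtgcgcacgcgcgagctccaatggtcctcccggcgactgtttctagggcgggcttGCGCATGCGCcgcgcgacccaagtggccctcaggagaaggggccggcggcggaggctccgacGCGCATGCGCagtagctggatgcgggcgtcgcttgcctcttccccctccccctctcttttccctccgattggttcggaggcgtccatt

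The letters end 10 bases before the RefSeq start in Nup62 and 55 bases before it in Nup107, and in Nup50 they end 157 and 95 bases before it. The last 17 bases before the Nup50 start, which lie in an annotated UTR, are not printed, so there the letters end 140 and 78 bases before the end of the stretch. The log2 fold changes were -0.62 for Nup62, -0.19 (95% interval -0.52 to 0.15) for Nup107 and 0.16 (-0.12 to 0.44) for Nup50. The part of the shared letters in these values was not tested. Nrf1, the gene of the factor, had 3.10 and 4.23 FPKM after knockdown, against 3.90 and 2.96 in the controls, and its groups overlapped. The ETS letters CCGGAAG, searched on both strands like the NRF1 letters and all the others, were in 8 of the 26 members (30.8%, beside 23.0% of tested genes and 9.93% of all). The GC box GGGCGG was in 18 members (69.2%, beside 70.8% and 38.2%), and CCAAT was in 10 (38.5%, beside 43.9% and 41.1%). The YY1 letters AAGATGGC were in 4 members (15.4%, beside 6.18% and 3.19%). The E2F pattern TTTNNCGC, which can overlap GC boxes, was in 6 (23.1%, beside 10.8% and 5.93%). The letters TATAAA were in 3 (11.5%, beside 8.46% and 15.7%). The E-box CAGCTG, of the type that Myod1 binds, was in 1 member, Ndc1 (3.85%, beside 17.4% of tested genes and 18.3% of all). The median GC content of the members' windows was 63.7%, beside 61.0% for tested genes and 52.7% for all. The median number of CpG steps, a C followed by a G, was 28 a window, beside 21 for tested genes and 7 for all. The part of base composition in the matches was not tested. A match describes letters in a window and does not show a bound site.

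Of the outer ring, 0 of 8 members passed the adjusted threshold, with 5 positive and 3 negative log2 fold changes and a median of 0.07. That median was -0.05 without knockdown replicate 1 and -0.04 without control replicate 1. Sec13, a propeller protein of the Y-complex that also serves in the COPII coat of secretory vesicles, was the most abundant of the 30 genes. It had 100.1 and 99.1 FPKM after knockdown, against 117 and 113 in the controls. Both knockdown libraries lay below both controls, with a log2 fold change of -0.20 (95% interval -0.42 to 0.01) and a limma adjusted p of 0.698. Nup85, which joins the short arm of the Y to its hub, had 45.7 and 51.9 FPKM after knockdown, against 40.3 and 45.6 in the controls. The lower knockdown value and the higher control value of Nup85 were nearly equal, and the log2 fold change was 0.18 (95% interval -0.12 to 0.48). The Nup85 value was 0.09 without knockdown replicate 2 or control replicate 1, 0.27 without knockdown replicate 1 and 0.26 without control replicate 2.

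The other outer ring genes overlapped between groups. Seh1l, a partner of Nup85, ranged from 61.7 to 72.9 FPKM over the 4 libraries. Nup107, in the stem of the Y, had 39.8 and 35.0 FPKM after knockdown, against 46.4 and 39.0 in the controls, and its stem partner Nup133 had 6.77 and 7.33 against 7.32 and 8.85. Nup37 ranged from 12.8 to 18.2 FPKM, Nup43 from 13.0 to 16.8, and Nup160, a long-arm subunit, from 2.26 to 2.87. Although these subunits occupy the same ring, the mean transcript level of Sec13 was 40.1 times that of Nup160.

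Of the inner ring, 0 of 5 members passed the adjusted threshold. Nup205, a large scaffold protein that bridges inner ring subunits, had 4.04 and 4.07 FPKM after knockdown, against 2.73 and 2.16 in the controls. Both knockdown libraries lay above both controls, at a mean level 1.66 times that of control. The log2 fold change of Nup205 was 0.56 ± 0.20 (SE), with a 95% interval of 0.07 to 1.05 and a limma adjusted p of 0.664, and it was 0.68 without control replicate 1 and 0.44 without control replicate 2. Its structural relative Nup188 had 3.76 and 5.18 FPKM against 3.80 and 4.08, and these groups overlapped. Nup93, the linker that recruits both scaffolds and the channel, had 69.4 and 58.6 FPKM after knockdown, against 67.5 and 70.0 in the controls. Its log2 fold change was -0.11 (95% interval -0.39 to 0.18) and 0.01 without knockdown replicate 2. Nup155, which contacts the membrane, ranged from 2.2 to 2.9 FPKM, and Nup35, its membrane-binding partner, from 17.6 to 20.4.

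Of the membrane ring, 3 of 4 members were tested and 0 passed. Aaas, the gene of aladin, which Ndc1 holds at the pore, had 23.5 and 27.8 FPKM after knockdown, against 28.9 and 29.0 in the controls. Both knockdown libraries of Aaas lay below both controls, with a log2 fold change of -0.18 (95% interval -0.49 to 0.14) that was -0.29 and -0.06 without knockdown replicates 2 and 1. Pom121, a membrane protein needed early in pore assembly, had 4.26 and 4.66 FPKM against 5.97 and 4.73. The gap of Pom121 between the nearest libraries was small, the log2 fold change was -0.21 (95% interval -0.69 to 0.26), and it was -0.07 without control replicate 1. Pom121 shares 665 of its 5580 exonic bases with Nsun5 on the opposite strand, a gene at 7.72 to 9.81 FPKM. Ndc1 had 16.0 and 12.0 FPKM after knockdown, against 12.9 and 12.8 in the controls, and these groups overlapped.

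Nup210, the nucleoporin tied to muscle differentiation, was the lowest of the genes listed above 0. It had 0.238 and 0.451 FPKM after knockdown, against 0.676 and 0.828 in the controls. The controls were the higher libraries without overlap. The mean of 0.548 FPKM was under the filter, and the gene was not tested. The mean level of Nup210 after knockdown was 0.458 of control. With no filter on low values its log2 fold change was -0.39 (95% interval -0.85 to 0.08), with a limma adjusted p of 0.818. The 1 FPKM added before logs were taken shrank this estimate, since all FPKM values of Nup210 were below it. Spread over its longest coding transcript of 7037 bases, these values correspond to about 61.3 to 227 reads per library, against 6779 to 11125 for Nup62. Myog, a factor of differentiating cells, had 3406 and 2793 FPKM after knockdown, against 4196 and 3931 in the controls (limma adjusted p 0.607), and its part in the level of Nup210 was not tested.

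On the cytoplasmic side, 0 of 7 members passed, with 2 positive and 5 negative and a median log2 fold change of -0.05, which was 0.11 without knockdown replicate 1 and 0.01 without control replicate 1. Ranbp2, the giant filament protein that holds the Ran GTPase activating protein at the pore, had 3.87 and 3.30 FPKM after knockdown, against 2.49 and 2.48 in the controls. Both knockdown libraries lay above both controls, with a log2 fold change of 0.39 (95% interval -0.09 to 0.87) and a limma adjusted p of 0.717. Rae1, an mRNA export factor that binds Nup98, was the most abundant of this group, with 40.6 and 48.0 FPKM against 47.2 and 41.5. Its groups overlapped, and its log2 fold change of -0.00465 was 0.11 without knockdown replicate 1 and 0.09 without control replicate 1.

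The mRNA export machinery at the cytoplasmic face overlapped between groups otherwise. Gle1, which activates the export helicase, had 17.1 and 18.7 FPKM after knockdown, against 15.6 and 18.2 in the controls, with a log2 fold change of 0.08 that was -0.02 without control replicate 1. Its binding partner Nupl2 ranged from 9.54 to 10.6 FPKM, and Nup88 from 31.5 to 35.5. Nup214, the filament anchor of the helicase, had 1.94 and 3.35 FPKM after knockdown, against 4.0 and 2.07 in the controls. The spread of Nup214 within each group, a factor of 1.73 in knockdown and 1.94 in control, was the widest within-group ratio among tested members in both groups. Nup98, a repeat protein found on both faces, had 3.50 and 2.32 FPKM against 3.31 and 3.09.

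The nuclear basket was the group in which every member had both knockdown libraries above both controls, while 0 of 3 passed the adjusted threshold. Nup153, which anchors the basket to the ring, had 3.83 and 3.34 FPKM after knockdown, against 2.38 and 2.74 in the controls. Its log2 fold change was 0.36 (95% interval -0.12 to 0.85) with a limma adjusted p of 0.743. Nup50, a mobile partner of Nup153 that helps release import cargo, had 29.2 and 28.5 FPKM against 25.5 and 25.9. The gap of Nup50 between groups was larger than the gap within either, and its log2 fold change was 0.16 (95% interval -0.12 to 0.44). Tpr, the coiled-coil protein that forms the basket filaments, had 14.8 and 15.8 FPKM against 14.2 and 14.6, with a log2 fold change of 0.08 (95% interval -0.25 to 0.40). The median of the 3 basket genes was 0.16, and all 3 were positive with quantile normalization, with median ratio scaling and without each library in turn. With 3 members and 22.1% of all genes lying above in this way, nothing particular to the basket is shown.

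**Figure D2:**
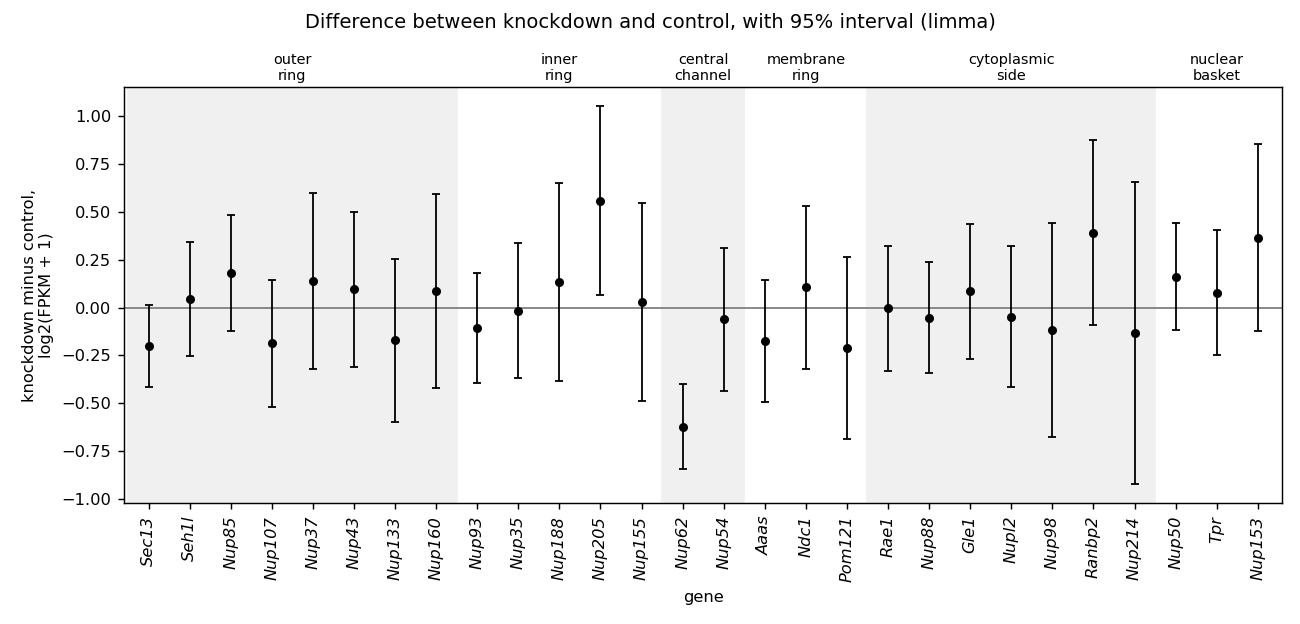
Difference between knockdown and control on the log2(FPKM + 1) scale for the 28 tested members, ordered by structural group and by level within it; points are limma estimates and bars their 95% intervals. The intervals of 26 members include 0; those of Nup62 (-0.84 to -0.40) and Nup205 (0.07 to 1.05) do not, before adjustment over all genes.

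Longer member transcripts had lower levels. Of the tested members, the 12 with a longest coding transcript under 3 kb had a median mean level of 30.6 FPKM, and the 11 of 5 kb or more had 3.07 FPKM. Among tested coding genes the medians were 14.1 and 3.22 FPKM. Across the 28 members, which share libraries and the same length scaling, log2 level and log2 length had a Pearson r of -0.71 and a Spearman rho of -0.72, beside -0.40 for both measures over 9350 tested coding genes. Genes are not independent replicates, and the values describe these libraries.

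Length and log2 fold change were more loosely related, with an r of 0.30 and a rho of 0.21 over the members and 0.13 and 0.16 over the coding genes. They were positive for 50.5% of tested coding genes under 3 kb, 59.2% from 3 to 5 kb and 67.2% of 5 kb or more. Among the members the same classes had 3 of 12, 4 of 5 and 7 of 11 positive, with no steady order. The 3 members with the highest log2 fold changes, Nup205, Ranbp2 and Nup153, have longest coding transcripts of 6412, 9608 and 6109 bases, and the part of length in their values was not tested. Nup62, at 2722 bases, is in the shortest class. The median log2 fold change of that class was 0.00216 over all tested coding genes and -0.05 over the members. The part of length in the value of Nup62 was not tested either.

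**Figure D3:**
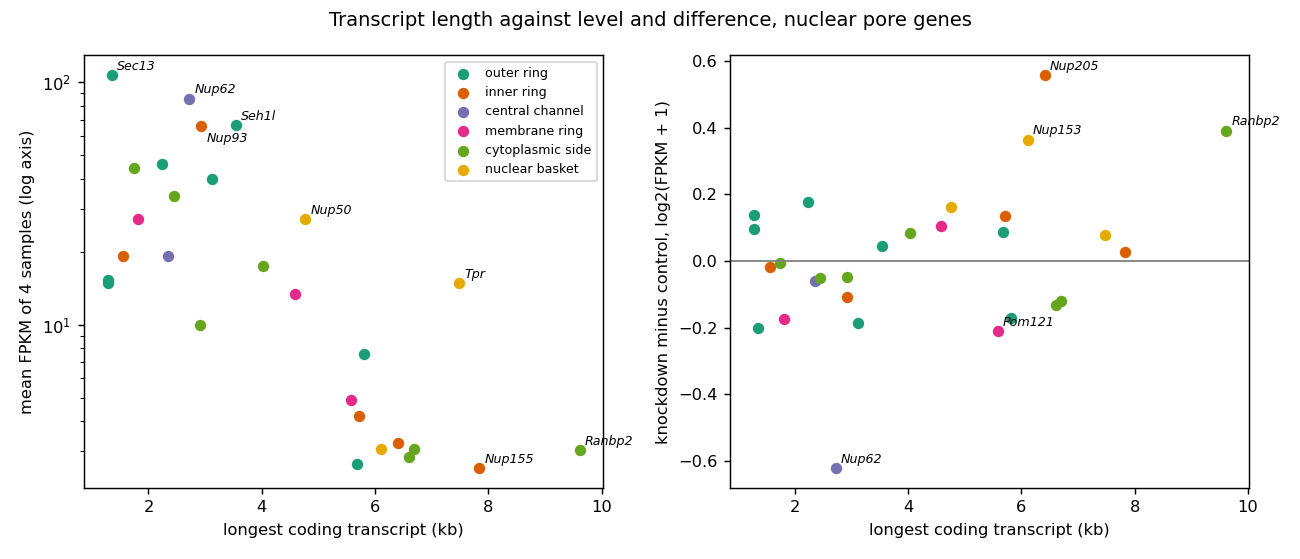
Length of the longest coding transcript in kb against the mean level over 4 samples (left, log axis) and against the log2 difference between knockdown and control (right) for the 28 tested members, coloured by structural group. Levels run from 107 FPKM for Sec13 down to 2.56 FPKM for Nup155; Tpr stands out among long transcripts at 14.8 FPKM.

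The genes that work with the pore were set beside it in 6 lists, of which 71 rows were tested and 0 passed the adjusted threshold. At an unadjusted p under 0.05 there were 5 higher and 1 lower, beside 4.39% and 2.70% of all genes. Xpo1, the main export receptor, had 24 and 21.1 FPKM after knockdown, against 14.2 and 15.6 in the controls, with a log2 fold change of 0.57 (95% interval 0.23 to 0.91) with a limma adjusted p of 0.566. The tRNA export receptor Xpot had 18.0 and 15.5 FPKM against 20.9 and 16.8. Of the 17 importins and adaptors, 10 were positive and 7 negative, with a median log2 fold change of 0.11. Ipo11 had 11.6 and 10.7 FPKM against 5.87 and 7.79, and the adaptor Kpna3 had 24.1 and 26.7 against 20 and 17.3, with limma adjusted p-values of 0.607 and 0.640. In 9 importins both knockdown libraries lay above both controls and in 2 below, beside 22.1% and 16.3% of all genes.

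The Ran cycle, which sets the direction of transport, had 5 positive and 4 negative of 9 genes, at a median of 0.01 on the log2 scale. Ran itself had 416 and 458 FPKM after knockdown, against 461 and 438 in the controls. Nutf2, the import factor of Ran, had 48.5 and 51.9 FPKM against 50.3 and 28.6, and its groups overlapped. The mRNA export list had 9 positive and 9 negative over 18 tested rows and a median of 0.01. Its row of Zc3h11a with the higher level had 1.61 and 3.11 FPKM against 1.19 and 0.660, and Mcm3ap had 3.87 and 4.18 against 3.16 and 2.63. Genes of the nuclear envelope had 8 positive and 6 negative over 14 tested and a median of 0.03. Lmna, the gene of lamins A and C, had 180 and 212 FPKM against 223 and 223, and Tor1aip2, an activator of torsin, had 14.8 and 13.1 against 17.4 and 16.7. Ahctf1, the chromatin-binding outer ring gene that the member list leaves out, had 5.36 and 6.26 FPKM against 4.92 and 4.82. Ctdnep1, a nuclear envelope phosphatase set in the same list as Ahctf1, had 5.57 and 3.30 FPKM against 1.41 and 2.47.

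**Figure D4:**
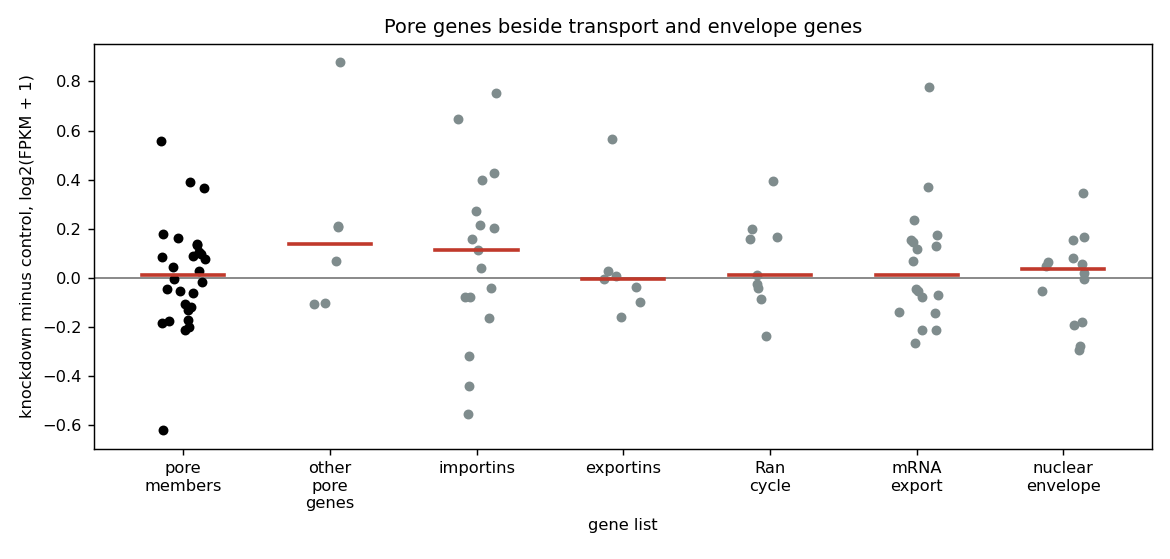
Log2 difference between knockdown and control for each tested pore member (black) and each tested gene of 6 lists of transport and envelope genes (grey), with the median of each list as a red bar. The medians lie between -0.00414 for exportins and 0.14 for the list labelled other pore genes. That list also holds Senp1, Senp2, Mad1l1 and the phosphatase gene Ctdnep1. Nup62 is the lowest point shown at -0.62.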

How the data were processed

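Polyadenylated RNA of 4 samples was made into cDNA with the SMART-Seq v4 kit and sequenced as paired reads of 150 nt, per the labels' protocols. Listed in the submitters' processing notes, without roles, are StringTie 1.3.3, HISAT2 2.1.0, Trimmomatic 0.36, SAMtools 1.3, bcl2fastq 2.19 and the build mm10. For the annotation release and strand setting, nothing is given in the sources used here. The authors deposited 1 table with an FPKM for each gene in each sample, a unit taken from the values since no header names it. In single-exon genes, low FPKM values times length fell on whole steps of 0.162 to 0.182 (tolerance 0.1 of a step) for 84.8% to 85.5% of values, where chance gives 20%. An FPKM of 1 on 1 kb then rests on about 36.6 to 41.1 reads, if 1 step is 1 sequenced base. Whole reads were not recovered for genes with several transcripts, so no count model was used.

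Genes averaging 1 FPKM or more, 10900 in all, were tested on log2(FPKM + 1) by limma 3.58.1 (R 4.3.3) with a trend of variance on mean, two-sided, and p-values were adjusted over all of them by the Benjamini-Hochberg method (threshold 0.05). Changes of low genes are understated on this scale. Degrees of freedom were 2 residual and 4.09 prior, and the fit was tested on simulated data. All 30 members were found in GENCODE M21 (GRCm38, the assembly that mm10 is made from), which gave coordinates and lengths. Python 3.11.15, pandas 2.3.3 and matplotlib 3.10.9 made summaries and plots.

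The members, lists and tests were chosen with earlier results of these data known, and the promoter motifs after them. Named with full values were Nup62 and Nup210, members at an unadjusted p under 0.05 or with groups apart and a log2 fold change of at least 0.3, and in each structural group the 2 lowest p-values and the highest mean. Of each other list the 2 lowest p-values were named, except 1 gene that is not reported here. Alternatives were a replicate block, quantile and median ratio scaling, a pseudocount of 0.1, no filter, a filter at 5 FPKM, no variance trend and leaving out each library.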

Additional observations from a re-analysis of the deposited data

How the results depend on the processing

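The count of 0 members past the adjusted threshold was 0 under each of the 11 alternatives run. The count of members at an unadjusted p under 0.05, 2 as reported, was 1 with quantile normalization and 1 with the filter at 5 FPKM, which leaves out Nup205. It was 3 with median ratio scaling and 3 with no filter (Sec13 added), and 3 without the variance trend (Ranbp2 added). It was 1 to 2 without each library in turn: Nup62 and Sec13 without knockdown replicate 1, and Nup62 alone without each other library. The median log2 fold change of the members, 0.01 as reported, was -0.0295 with quantile normalization and -0.0134 with median ratio scaling. It was -0.0168 with the filter at 5 FPKM, and -0.0365 to 0.0376 without each library. The median over all genes tested moved too. From 0.0262 as reported, it went to -0.00494 with quantile normalization and 0.00122 with median ratio scaling. It was 0.00406 with the filter at 5 FPKM, and 0.00765 to 0.0542 without each library. No named member crossed the threshold under these alternatives. Of the 28 members, 16 changed sign when some single library was left out, all with a log2 fold change within 0.137 of 0 as reported. Among the members named by rule these were Gle1 (-0.0215 to 0.191), Nup54 (-0.194 to 0.0725), Nup93 (-0.228 to 0.0128) and Rae1 (-0.124 to 0.114), and the cause was not tested.

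Over all genes, 6 passed as reported, 0 with no filter, 3 with the replicate block and 15 without knockdown replicate 1.

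With the replicate block, 0 members passed and 2 had an unadjusted p under 0.05, and the adjusted p of Nup62 was 0.625. Same-numbered libraries did not deviate together (correlation -0.02 over 10900 genes). The labels do not say whether they shared an animal, culture or day, and 1 correlation over all genes cannot settle it. With a library left out, its lone partner was assumed to vary like the other group.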
